A study of Mus musculus with 9 samples.

Results

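Glutathione peroxidases reduce hydrogen peroxide and lipid peroxides with electrons from glutathione. The 8 mouse genes of the family, Gpx1 to Gpx8, were taken by their symbols from a table of 32195 genes, all 8 had a row, and they are described here in single cells of the mouse epididymis across its segments, 2 ages and the cell populations of the duct. The libraries came from untreated mice that the labels give as C57BL/6 and the study's methods as C57BL/6J. At postnatal day 42 (P42) the epididymides of 5 mice were pooled, and at day 56 (P56) those of 10 mice were pooled into 2 replicates, called replicate 1 and replicate 2. Each pool gave 1 library of the caput, 1 of the corpus and 1 of the cauda, so that 9 libraries were compared, and the 3 segments of each pool share their mice. Because the mice were pooled, the spread between libraries is a spread between pools, and the single P42 pool has no replicate. Sperm were not depleted and red blood cells were lysed.

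The epididymis is a long duct in which spermatozoa mature and are stored, and its principal cells secrete most of the proteins that the passing spermatozoa meet. Spermatozoa are rich in unsaturated membrane lipids that peroxides attack, and several members of the family are known for protecting them. GPX5 is a secreted enzyme made under androgen control by the epididymal epithelium. GPX3 is the secreted form best known from blood plasma. GPX1 is the common enzyme of the cytosol, GPX2 is a related enzyme of epithelia, and GPX4 acts on lipid peroxides within membranes and also forms part of the mitochondrial capsule of the sperm midpiece. GPX6 is known from the olfactory epithelium, and GPX7 and GPX8 reside in the endoplasmic reticulum, where peroxide arises from the folding of secreted proteins. All of the values below are messenger RNA and give no level of enzyme.

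The members differ at the residue that reacts with peroxide. In GPX1 to GPX4 this residue is selenocysteine, written in the messenger as TGA, a codon that otherwise stops translation, whereas the mouse genes for GPX5 to GPX8 carry a cysteine codon at the matching place. The stretches shown here, taken from the GRCm38 transcripts of the GENCODE annotation, allow this to be seen for all 8 members. Each stretch is 45 bases of coding sequence in the direction of the gene, and the capitals mark the codon of the reactive residue.
Gpx1: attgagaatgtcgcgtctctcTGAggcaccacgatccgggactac
Gpx2: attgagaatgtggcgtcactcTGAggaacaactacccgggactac
Gpx3: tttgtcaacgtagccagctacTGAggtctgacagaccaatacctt
Gpx4: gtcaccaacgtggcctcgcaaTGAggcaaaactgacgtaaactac
Gpx5: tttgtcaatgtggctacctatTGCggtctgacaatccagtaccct
Gpx6: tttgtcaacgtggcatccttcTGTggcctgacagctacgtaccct
Gpx7: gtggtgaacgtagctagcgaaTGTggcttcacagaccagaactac
Gpx8: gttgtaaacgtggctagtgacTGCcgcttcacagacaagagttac
The codon lies in exon 1 of 2 in Gpx1 (residue 47, chr9:108339430-108339474 for the stretch, plus strand) and in Gpx2 (residue 40, chr12:76795235-76795279, minus strand). It lies in exon 2 of 5 in Gpx3 (residue 73, chr11:54907235-54907279, plus strand), Gpx5 (residue 73, chr13:21291315-21291359, minus strand) and Gpx6 (residue 73, chr13:21313756-21313800, plus strand). In Gpx4 it lies in exon 3 of 7 (residue 129 of the transcript used here, chr10:80054716-80054760, plus strand). In Gpx7 (residue 56, chr4:108403409-108403453, minus strand) and Gpx8 (residue 79, chr13:113045640-113045684, minus strand) it lies in exon 2 of 3. Gpx5 (chr13:21286429-21292731) and Gpx6 (chr13:21312125-21319624) lie close together on opposite strands. Their transcripts align over 491 bases with 78.0% identity, and the alignment ends 953 and 557 bases before the 3′ ends, which is where this 3′ method counts molecules. Gpx4 and the processed copy Gpx4-ps2 align over 762 bases with 99.7% identity, up to 0 and 20 bases from their 3′ ends, so the division of molecules between these rows is uncertain. The copy held more UMIs (unique molecular identifiers, each standing for 1 captured RNA molecule) than Gpx4 itself in the principal-like cells of every library, by a ratio of 1.36 to 3.14.

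The filtered data held 42087 cells of 44869 barcodes, with 4209 to 4910 cells and a median of 3088 to 7644 UMIs per cell across libraries. Cells were clustered, and a cluster was named after a cell type only from marker genes. This gave 17441 principal-like, 4971 clear/narrow-like, 4831 myoid/fibroblast-like, 4004 basal-like, 3108 macrophage-like, 882 sperm-like, 852 endothelial-like, 508 T-like and 205 ciliated-like cells, and 4576 cells remained unnamed, while 709 erythroid-like cells were left out. The corpus of P56 replicates 1 and 2 held 1065 and 1524 of the unnamed cells, beside 1899 and 1278 principal-like cells. The largest unnamed cluster (2914 cells, 49.3% from the corpus of P56 replicate 2) was led by immunoglobulin genes. No doublets were called or removed beyond upper limits on UMIs and genes. For 7 of these 9 populations all markers or all but 1 had their highest level there, for the basal-like cells 8 of 10 and for the principal-like cells 9 of 21. Sperm-like cells of the cauda in P56 replicate 1 were fewer than 10 and were not used. Ciliated-like cells came from the caput libraries. Any pair of libraries shared 2 to 35 barcodes, at most 0.703% of the smaller library, and no shared barcode was removed. The P42 cauda library stood apart. Its principal-like cells had a median of 1543 UMIs, and all 14 myoid/fibroblast markers were detected in them with a summed level of 16913 CPM (counts-per-million, here of UMIs), against 391 and 372 in the P56 cauda. The 12 macrophage markers summed to 2648 against 66.7 and 155, and the 5 erythroid genes to 34579 against 63.8 and 132.

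Levels are given as CPM, from UMIs summed over the cells of 1 population in 1 library. A UMI counts the 3′ end of 1 molecule whatever the length of the transcript, so levels of different genes were set side by side without division by length. Segments were compared by edgeR's quasi-likelihood test on the summed UMIs with the pool of mice in the model. Calls required both an adjusted p (Benjamini-Hochberg, over all genes tested) under 0.05 and a difference of 1 or more on the log2 scale. Values after ± are standard errors (SE) worked back from the test, as the size of the fold change divided by the square root of its F value.

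Gpx5 was the most abundant transcript of principal-like cells in the caput. Over all cells of a caput library it ranked 2 at P42 (3.14% of UMIs) and 1 in P56 replicates 1 and 2. In the principal-like cells of the caput it ranked 1 among all genes in all 3 libraries and took 4.66%, 8.13% and 7.03% of the UMIs at P42, in P56 replicate 1 and in P56 replicate 2. Its levels were 46597, 81325 and 70297 CPM in the caput, 138, 270.3 and 34.5 CPM in the corpus, and 366, 384 and 368 CPM in the cauda, in the same order of pools. The caput libraries thus lay far above all others, and the cauda libraries lay within a narrow range above all 3 corpus libraries. Gpx5 was lower in the corpus than in the caput by a log2 fold change of -8.95 ± 0.79 (SE, adjusted p = 0.000106) and lower in the cauda than in the caput by -7.21 ± 0.73 (adjusted p = 0.000195). The cauda exceeded the corpus by 1.74 ± 0.59 on the log2 scale, which was not called (adjusted p = 0.10), although DESeq2 called it (adjusted p = 0.00207), as did edgeR with no filter on low counts, with cells assigned 1 by 1 from markers, or without the P42 cauda (log2 1.82, adjusted p = 0.047). No library left out ended the calls against the caput. Without the corpus of P56 replicate 2, which held the lowest level, the difference between corpus and caput was -8.29.

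Gpx3 had the opposite distribution. Its CPM in principal-like cells was 186, 146 and 288 in the caput, 6240, 6503 and 8358 in the corpus, and 6768, 9334 and 11303 in the cauda. Every corpus and cauda library exceeded every caput library, and the corpus and cauda ranges overlapped. Gpx3 ranked between 10 and 15 among all genes in the 6 corpus and cauda libraries and between 445 and 810 in the caput. It was higher in the corpus than in the caput by a log2 fold change of 5.19 ± 0.37 (adjusted p = 3.96e-05) and in the cauda than in the caput by 5.71 ± 0.38 (adjusted p = 2.77e-05), while cauda and corpus differed by 0.52 ± 0.31 (adjusted p = 0.34). Gpx5 thus exceeded Gpx3 in RNA in the caput and stood below it in the corpus and the cauda in all 3 pools.

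**Figure D1:**
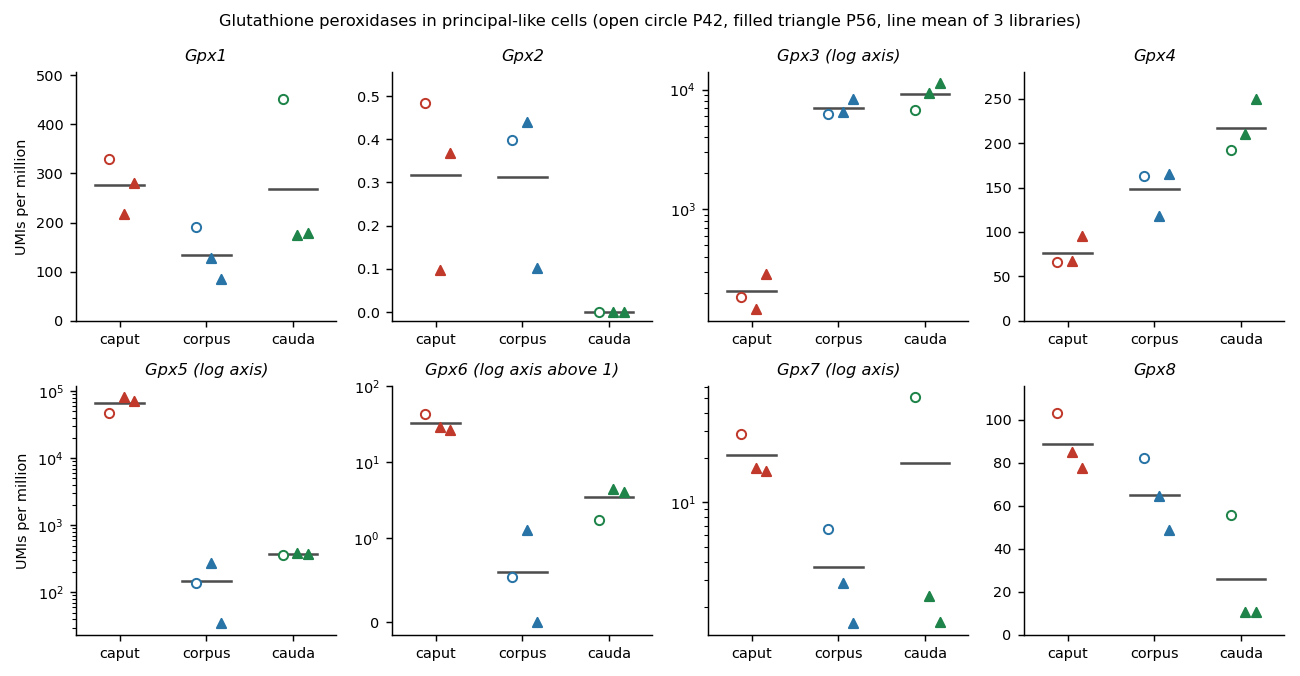
CPM of each member in principal-like cells of the 9 libraries, with 1 panel per gene, segments on the horizontal axis, 1 point per library and a line at the mean of 3 libraries. Gpx5 falls from 46597 to 81325 CPM in the caput to 34.5 to 270.3 CPM in the corpus, Gpx3 takes the opposite course, and the P42 cauda (open circle) stands above both P56 cauda libraries for Gpx1, Gpx7 and Gpx8.

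Gpx6, the neighbour of Gpx5 on chromosome 13, was a minor transcript with the same order of segments. Its CPM was 42.5, 28.6 and 25.95 in the caput, 0.53, 1.25 and 0 in the corpus, and 1.71, 4.45 and 4.05 in the cauda. The library without a Gpx6 UMI, the corpus of P56 replicate 2, held 9744607 UMIs in principal-like cells, which allows a level of up to 0.308 CPM. Gpx6 was lower in the corpus than in the caput by a log2 fold change of -5.66 ± 0.68 (adjusted p = 0.000506) and in the cauda by -2.90 ± 0.55 (adjusted p = 0.00463). Its excess in the cauda over the corpus (2.76 ± 0.71, adjusted p = 0.0399) rested on few molecules and lost its call without any 1 of 7 of the libraries, with adjusted p from 0.0549 to 0.143. For every 1000 UMIs of Gpx5, the principal-like cells held 0.351 to 0.913 UMIs of Gpx6 in the caput and 4.67 to 11.6 in the cauda, so that Gpx6 did not keep 1 ratio to Gpx5 along the duct.

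Of the selenocysteine members inside the cell, Gpx4 was higher in the corpus and in the cauda than in the caput, and Gpx1 had its lowest fitted level in the corpus. Gpx4 had 65.9, 67.2 and 95.5 CPM in the caput, 163, 118 and 165 in the corpus, and 192, 209.8 and 250.1 in the cauda, with no overlap between segments. It was higher in the corpus than in the caput (log2 1.05 ± 0.20, adjusted p = 0.00488) and in the cauda than in the caput (1.75 ± 0.20, adjusted p = 0.00041), and the cauda against the corpus was not called (0.70 ± 0.20, adjusted p = 0.0568). Without the P42 corpus the first of these fell to 0.85 (adjusted p = 0.0283), below the fold that was required. With library totals alone it was 0.97 (adjusted p = 0.0026), also below it. In all 3 alternatives ended this call, 1 of them a library left out. The near copy Gpx4-ps2 was called in the cauda against the caput (1.35 ± 0.20, adjusted p = 0.00135) but not in the corpus against the caput (0.89 ± 0.20, adjusted p = 0.0101, below the required fold). Gpx1 had 330.3, 218 and 281 CPM in the caput, 190.5, 127 and 84.8 in the corpus, and 452, 175 and 179.7 in the cauda. It was lower in the corpus than in the caput (-1.04 ± 0.20, adjusted p = 0.00526) and higher in the cauda than in the corpus (1.07 ± 0.20, adjusted p = 0.0112), while cauda and caput differed by 0.03 ± 0.20 (adjusted p = 0.93). These Gpx1 differences were close to the required fold. The first was not called without the caput or the corpus of P56 replicate 2 (-0.85 in each case) and the second without the P42 cauda (0.95), the P42 corpus (adjusted p = 0.0625) or the corpus of P56 replicate 2 (0.90). With coarser clusters, at a clustering resolution of 0.5, they shrank to -0.41 (adjusted p = 0.28) and 0.49 (adjusted p = 0.25). At that resolution a cluster of 5078 cells, 47.9% of them from the corpus of P56 replicate 2, was unnamed and left out. The principal-like cells compared were thus not the same set.

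The endoplasmic reticulum members were both lowest in P56 cauda or corpus libraries. Gpx8 had 103, 85.0 and 77.5 CPM in the caput, 82.0, 64.3 and 48.9 in the corpus, and 55.7, 10.7 and 10.7 in the cauda. The P42 cauda was the highest of its segment and lay within the range of the corpus. Gpx8 was lower in the cauda than in the caput (-1.98 ± 0.34, adjusted p = 0.00291) and than in the corpus (-1.58 ± 0.34, adjusted p = 0.0194), and the corpus against the caput was not called (-0.41 ± 0.32, adjusted p = 0.37). The call against the corpus was lost without either P56 library of the cauda or of the corpus, with adjusted p from 0.0815 to 0.104. Gpx7 had 28.8, 17.1 and 16.4 CPM in the caput, 6.63, 2.87 and 1.54 in the corpus, and 51.0, 2.35 and 1.58 in the cauda, where the P42 library was the highest of all 9 and the P56 libraries were among the lowest. It was lower in the corpus than in the caput (-2.78 ± 0.70, adjusted p = 0.0172), a call lost without either P56 caput library, the P42 corpus or the corpus of P56 replicate 2 (adjusted p from 0.0655 to 0.0982). Its difference between cauda and caput was not called with all libraries (-1.37 ± 0.68, adjusted p = 0.16) and was called without the P42 cauda (-2.67, adjusted p = 3.25e-05) or the P42 caput (-2.20, adjusted p = 0.0152). Gpx2 was nearly absent from principal-like cells, with 24 UMIs in 6 of 9 libraries, and was not tested there. The principal-like cells of the cauda held none, which allows up to 0.64, 0.191 and 0.176 CPM at P42 and in P56 replicates 1 and 2.

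In all, 6 of the 7 members tested were called between corpus and caput, 2 higher and 4 lower, where 23.7% of the 15872 genes tested were called in either direction, 11.6% higher and 12.2% lower. Between cauda and caput 5 of 7 were called, 2 higher and 3 lower, beside 24.7% of all genes, 11.9% higher and 12.8% lower. Between cauda and corpus 3 of 7 were called, Gpx1 and Gpx6 higher and Gpx8 lower, beside 10.1% of all genes, 4.56% higher and 5.51% lower. This last count depended on the libraries most. It was 1 without the cauda of P56 replicate 1 or 2, the P42 corpus or the corpus of P56 replicate 1, and 0 without the corpus of P56 replicate 2. The comparisons share libraries and do not stand for each other.

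**Figure D2:**
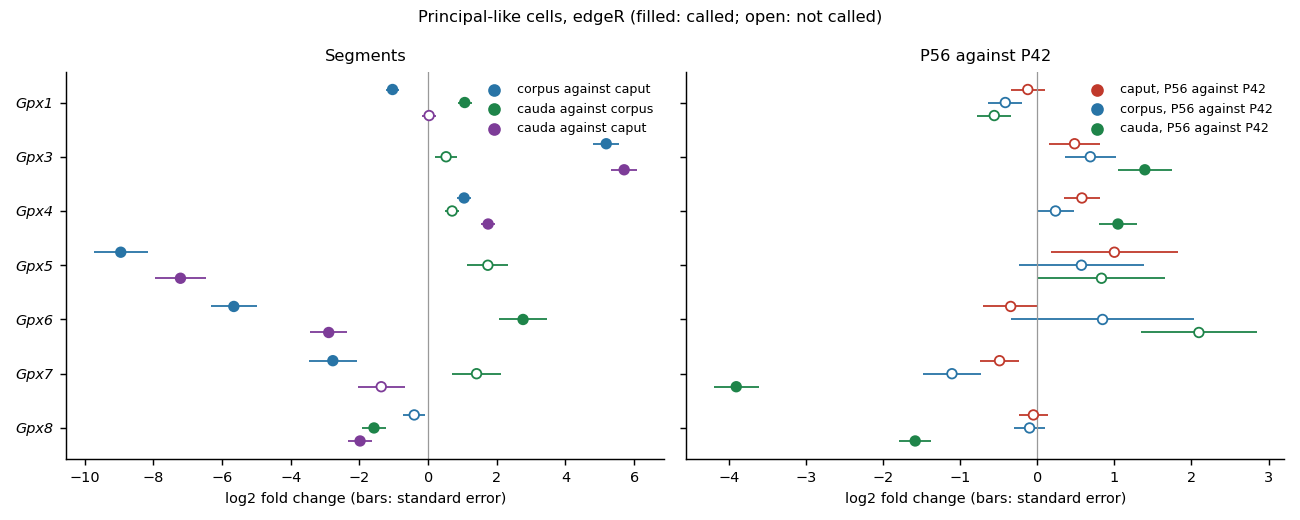
Log2 fold changes of 7 members in principal-like cells with standard errors worked back from the F test, between segments on the left and between P56 and P42 within each segment on the right, filled where called. Gpx5 and Gpx3 lie at opposite ends of the left panel (-8.95 and 5.19 for corpus against caput), and the called differences of age, for Gpx3, Gpx4, Gpx7 and Gpx8, are all in the cauda.

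Within the caput, Gpx5 was not uniform over the principal-like cells. The clusters are described by their 5 leading genes, and differences between them are given without a test because the cells were clustered on these same genes. The cluster led by Lypd8, Defb18, Defb47, Ceacam10 and Pate6 held the highest level, with 55131 CPM at P42 and 112964 and 107852 CPM in P56 replicates 1 and 2. The cluster led by Rnase9, Defb39, BC048679, Lcn5 and Epp13 held less in each library, 23354, 52394 and 38883 CPM. In the cluster led by Cst12, Defb48, Teddm2, Adam28 and Actg2, of which 92.2% of cells came from P56 replicate 1, Gpx5 reached 33002, 78106 and 74724 CPM. These levels came from 41, 1463 and 71 cells. A further cluster was 99.7% P42 caput (led by Adam28, Cst12, Defb48, Pate5 and Actg2, 51481 CPM) and another 99.9% caput of P56 replicate 2 (led by Lcn9, Rnase10, Actg2, Pate5 and Adam28, 87654 CPM), so these cannot be told apart from their library. The order from the Rnase9-led through the Cst12-led to the Lypd8-led cluster was the same in all 3 libraries. Its middle place rested on 41 cells at P42 and 71 in P56 replicate 2. The P42 caput cluster (1151 cells) shares Cst12, Defb48, Adam28 and Actg2 among its leading genes. Its Gpx5 of 51481 CPM stood beside 55131 CPM in the Lypd8-led cluster of that library.

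Gpx3 was spread over the same clusters in another order. In the Rnase9-led cluster it had 478, 367 and 460.2 CPM, against 179, 34.3 and 49.3 CPM in the Cst12-led and 275, 54.4 and 92.8 CPM in the Lypd8-led cluster. Gpx1 was likewise highest in the Rnase9-led cluster, with 484, 315 and 382 CPM, although at P42 the Lypd8-led cluster (420.1 CPM) and the Cst12-led cluster (386 CPM) lay close to it. The Cst12-led values at P42 came from 41 cells. The cluster that was 99.7% P42 caput (1151 cells there) had 105.8 CPM of Gpx3 and 287.4 CPM of Gpx1. A few caput cells, 31 in P56 replicate 1 and 43 in P56 replicate 2, fell in a cluster made up mostly of corpus cells. They held 2582 and 3796 CPM of Gpx3 together with 35797 and 15965 CPM of Gpx5, whereas the corpus cells of that cluster held 4778 to 7392 CPM of Gpx3 and 45.5 to 140.5 CPM of Gpx5. Gpx4 had 62.6, 76.6 and 104.5 CPM in the Rnase9-led and 67.2, 49.0 and 56.7 CPM in the Lypd8-led cluster, so that the order of these clusters was not the same in all 3 libraries.

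**Figure D3:**
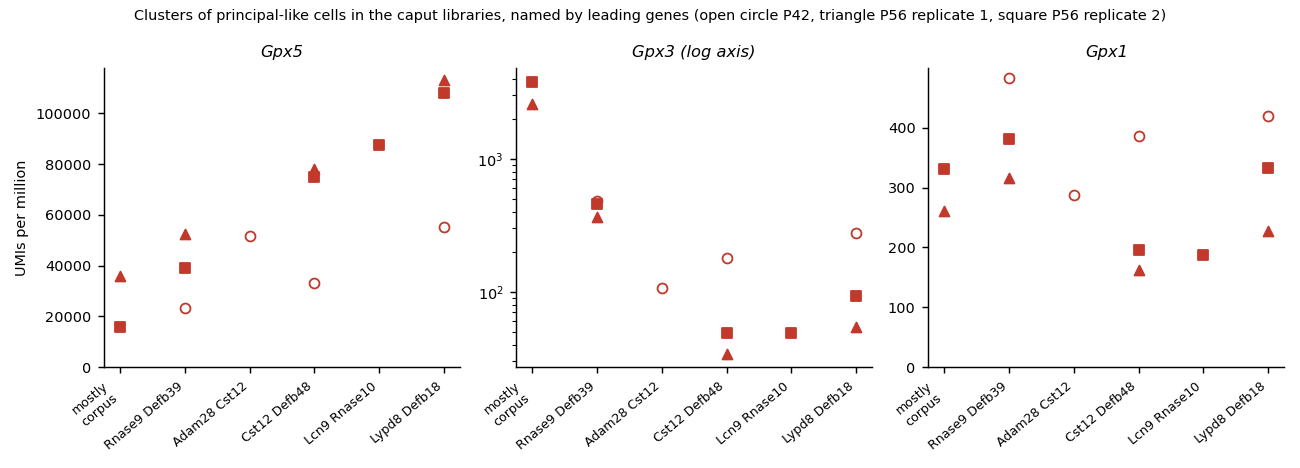
CPM of Gpx5, Gpx3 and Gpx1 in the clusters of principal-like cells of the caput, each named by its leading genes and ordered by mean Gpx5, with 1 point per library that has at least 20 cells in the cluster. Gpx5 is highest in the Lypd8 Defb18 cluster in each library (55131 to 112964 CPM) and Gpx3 is highest in the caput cells of the mostly corpus cluster (2582 and 3796 CPM).

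Within the corpus, Gpx5 differed most between clusters in P56 replicate 1. A cluster with high Lcn5 held 1504 CPM of Gpx5 in that library (328 cells), and 23 cells of the Rnase9-led caput cluster held 1612 CPM, against 85.5 CPM in the main corpus cluster. The Lcn5-high cluster held 329 CPM at P42 (91 cells), beside 120.0 CPM in the main P42 corpus cluster (1237 cells). In P56 replicate 2 it held 67.1 CPM (34 cells), beside 30.2 CPM in the main corpus cluster (979 cells) and 99.9 CPM in 44 cells of the main cauda cluster. The same Lcn5-high cluster had the lowest Gpx3 of the corpus clusters, at 2591, 2639 and 3529 CPM.

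Outside principal-like cells, levels of Gpx5 have to be read beside free RNA, the RNA from broken cells that can enter any well. Its amount was not measured. In the caput, 100% of the basal-like, macrophage-like, endothelial-like and T-like cells of each library had a Gpx5 UMI, as did the principal-like cells. After thinning each cell to 1000 UMIs the shares were still 98.8% to 100% in these 4 populations and 99.7% to 99.99% in principal-like cells. Such a share therefore does not set these populations apart from principal-like cells and is not read as expression. As a gauge, a list of 16 other genes for secreted or surface proteins of principal cells, such as Lcn8, Cst12 and Adam7, was measured in the same cells. All 16 are among the 21 markers that named the principal-like cells, so their lower level elsewhere is partly set by the naming. Only list genes at 100 CPM or more in the principal-like cells of a library were used, which left 14 in each caput library. In basal-like cells of the caput Gpx5 stood at 28.9% to 55.6% of its level in principal-like cells, and the median gene of the list stood at 30.6% to 72.1%. In macrophage-like cells Gpx5 stood at 55.1% to 95.1% beside 63.9% to 117% for the list. Over the 24 pairs of a caput library and a population, Gpx5 lay above the list's median in 3 and above its highest gene in none, and the part of free RNA in these levels was not tested. In the corpus and cauda the share of cells with a Gpx5 UMI, 17.1% to 36.9% and 29.5% to 69.1% in principal-like cells, was 15.8% to 35.8% and 24.2% to 65.4% in macrophage-like cells, and after thinning 3.94% to 14.04% and 19.0% to 25.6% against 4.64% to 17.1% and 9.36% to 21.4%. Relative to principal-like cells, Gpx5 in the other populations lay above the highest gene of the list in 18 of 21 pairs in the corpus and 17 of 20 in the cauda. It lay above the list's median in 18 of 21 and 18 of 20 pairs. The list there came down to 6 genes in each corpus library, 2 in the P42 cauda and 4 in each P56 cauda library. Its highest gene is a weaker bar there, so the counts above that gene cannot be compared with that of the caput. In the corpus of P56 replicate 2 the other populations stood at 72.7% to 152% of the principal-like level of Gpx5. In the cauda of P56 replicates 1 and 2 Gpx5 was highest in endothelial-like cells (499 and 437 CPM, against 384 and 368 in principal-like cells). The number of cells carrying a message and the amount per cell cannot be told apart in a summed level.

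Over the same 24 pairs of the caput, Gpx1 exceeded the highest gene of the list in 21, Gpx4 in 20, Gpx7 in 15, Gpx8 in 14 and Gpx3 in 12. Gpx6 exceeded it in 5 and the list's median in 12, and Gpx2, on few UMIs, exceeded it in 6 and lay below the lowest gene in 18. Because the list is made of principal cell markers, a gene not particular to principal cells can pass this bar. The share of all genes that pass it was not counted. Gpx1 was lower in principal-like than in basal-like, myoid/fibroblast-like, macrophage-like and endothelial-like cells in all 9 libraries. Its highest population was the ciliated-like in the 3 caput libraries (1154, 741 and 909 CPM), and elsewhere the macrophage-like or the basal-like, with 1467, 752 and 431 CPM in macrophage-like and 686, 359 and 493 CPM in basal-like cells of the corpus. The mean order in the caput ran from ciliated-like (935 CPM) through basal-like (638 CPM), endothelial-like (523 CPM), macrophage-like (521 CPM), clear/narrow-like (395 CPM), myoid/fibroblast-like (385 CPM), T-like (344 CPM) and principal-like (277 CPM) to sperm-like cells (274 CPM). The ranges of all neighbours in this order overlapped.

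**Figure D4:**
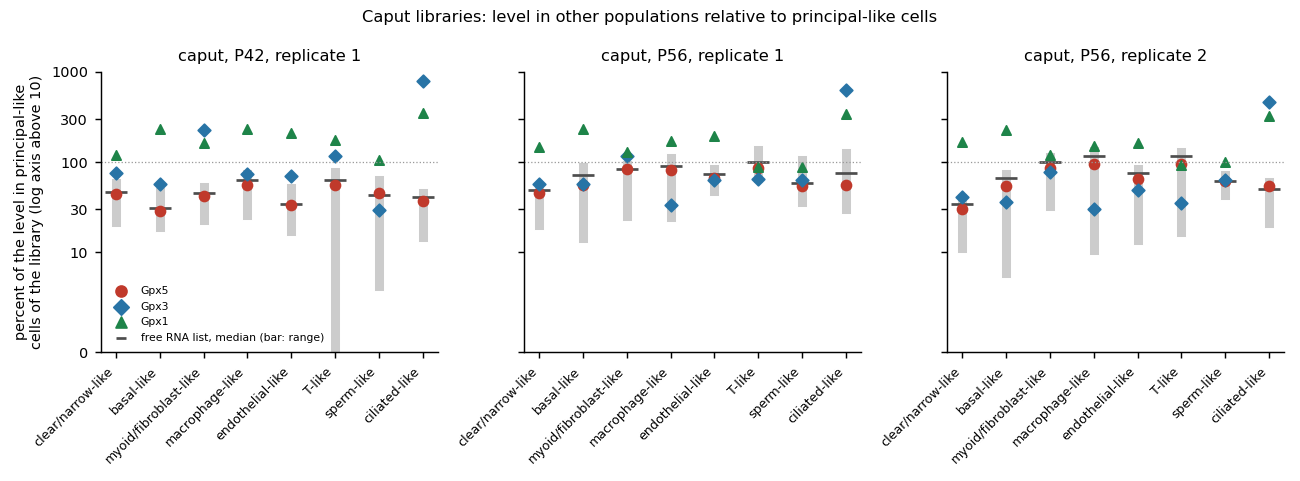
Level of Gpx5, Gpx3 and Gpx1 in each population of the 3 caput libraries as a percent of the level in principal-like cells of the same library, with the median (dash) and range (grey bar) of the list of principal cell genes. Gpx5 lies near or below the dash, whereas Gpx1 in 21 of 24 pairs and, in ciliated-like cells, Gpx3 (461% to 795%) lie above the bar.

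Gpx3 had an additional site in the caput. The ciliated-like cells, named from 8 cilia genes, held 1477, 908 and 1327 CPM, which was 461% to 795% of the level in principal-like cells of the same libraries, and Gpx3 was higher there than in any other population in all 3. Gpx5 in these cells stood at 36.5% to 55.9% of the principal-like level. In the corpus and cauda Gpx3 was highest in principal-like cells in all 6 libraries. Its share of cells with a UMI there was 97.7% to 100%, but it was also 95.9% to 100% in macrophage-like cells, and its level in macrophage-like cells was 41.3% to 76.8% of the principal-like level in the corpus.

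Gpx4 was highest in sperm-like cells in 6 of the 8 libraries with enough of them. There it had 225, 206 and 219 CPM in the caput, 264, 212 and 245 CPM in the corpus, and 231 and 220.4 CPM in the cauda at P42 and in P56 replicate 2. In the caput and corpus these values lay above those of every other population, and in the cauda they lay within the range of principal-like cells. No difference between segments was called for Gpx4 in sperm-like cells (span of 0.49 on the log2 scale, adjusted p = 0.36). Gpx4-ps2 shared the pattern, with sperm-like above principal-like cells in 8 of 8 libraries.

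Gpx7 and Gpx8 were highest in myoid/fibroblast-like cells in 8 of 9 libraries each. The exceptions were the cauda of P56 replicate 2 for Gpx7 (15.97 CPM in endothelial-like cells) and the caput of P56 replicate 1 for Gpx8 (85.0 CPM in principal-like cells). Gpx7 had 76.4, 22.4 and 34.3 CPM in the caput, 152, 34.3 and 25.9 in the corpus, and 205, 13.6 and 11.6 in the cauda of these cells, against 2.35 and 1.58 CPM in the principal-like cells of the P56 cauda. In each segment the P42 library was the highest. Gpx8 had 133, 81.4 and 92.3 CPM in the caput, 168, 86.3 and 79.8 in the corpus, and 184, 47.1 and 29.1 in the cauda, again with P42 highest in each segment. Of the 5 clusters that make up these cells, that led by Pi16 and Pcolce2 (699 cells) came to 97.6% and that led by Col6a5 and Sult1e1 (764 cells) to 54.5% from the P42 cauda, so that age there cannot be told apart from the kinds of cell summed. Gpx2 counted 112 UMIs in all, 57 of them in basal-like cells, although these were 4004 of 41378 cells. Basal-like cells had 3.87, 1.65 and 4.001 CPM in the caput (11, 4 and 16 UMIs), 13.8, 2.05 and 5.32 CPM in the corpus (13, 3 and 9 UMIs), and 1 UMI in the cauda at P42 and none in either P56 cauda library, which allows up to 0.441 and 0.419 CPM. Exact Poisson intervals at 95% ran from 7.34 to 23.6 CPM for the highest and from 0.0667 to 14.7 CPM for the P42 cauda, and cover counting error only. Gpx6 was highest in the sperm-like cells of 4 libraries, but on 2 to 8 UMIs in 3 corpus libraries and the P42 caput.

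**Figure D5:**
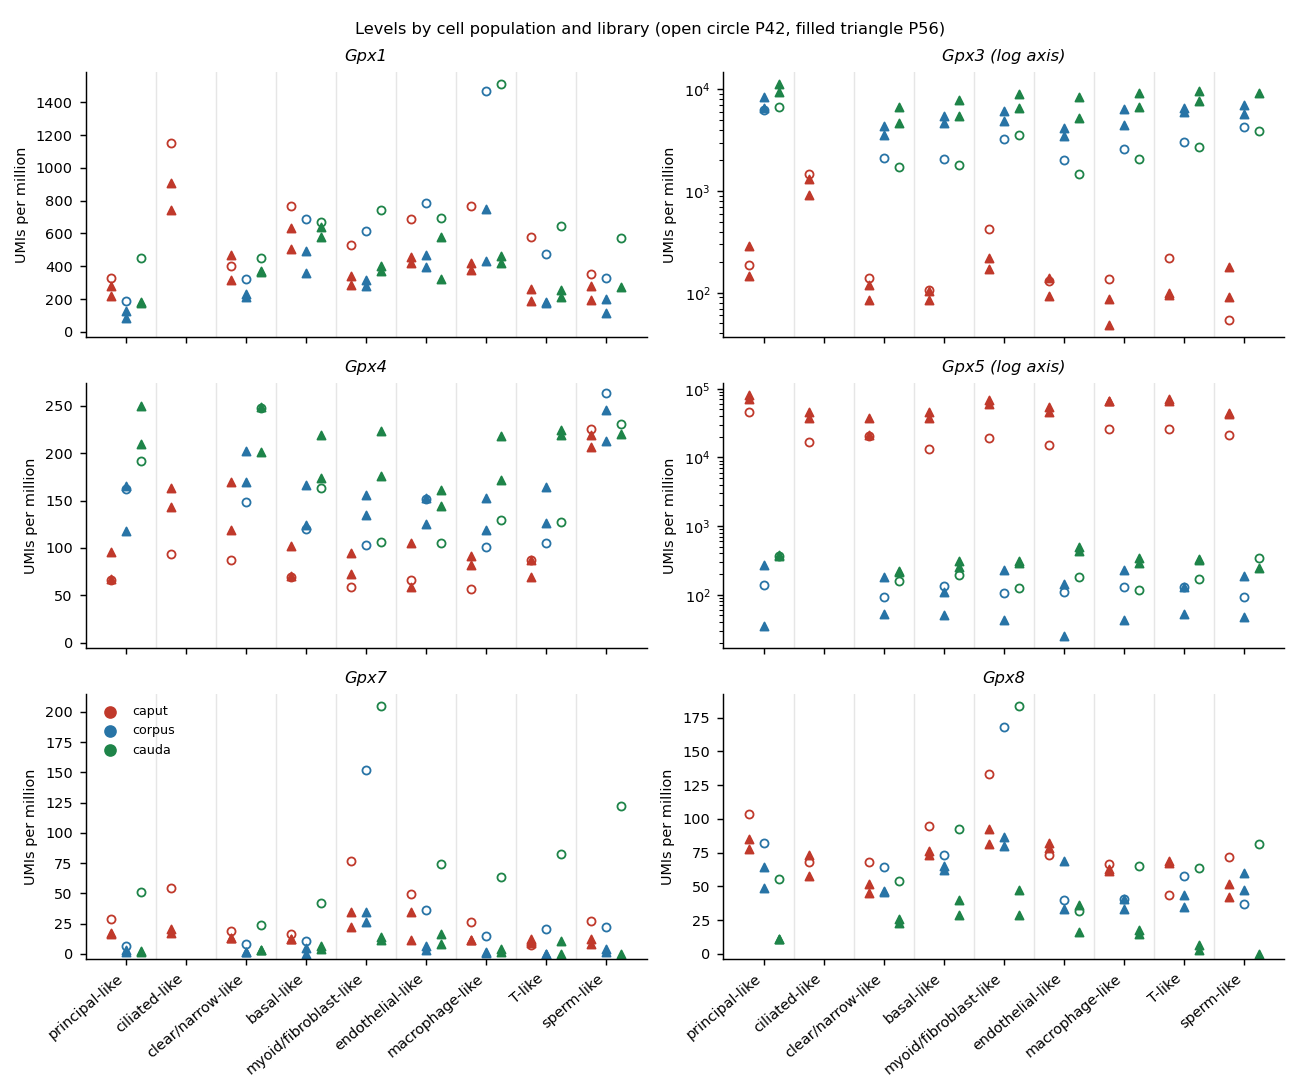
CPM of 6 members in each cell population, with 1 point per library, coloured by segment, open circles for P42 and triangles for P56. Gpx7 and Gpx8 are highest in myoid/fibroblast-like cells in 8 of 9 libraries each, with the P42 library of each segment above its P56 libraries in these cells (up to 205 and 184 CPM), Gpx4 is highest in sperm-like cells of the caput and corpus, and Gpx5 is highest in the caput libraries in each population found in all 3 segments.

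The difference between segments was also tested in the other populations, where the free RNA described above can move with it and its part was not tested. Over the 7 other populations, each compared over the 3 segments by an F test, Gpx3 and Gpx5 were called in all 7, Gpx3 with its highest level in the cauda and Gpx5 in the caput. The span between the highest and lowest segment was 4.78 to 6.25 on the log2 scale for Gpx3 and 7.78 to 8.87 for Gpx5. Basal-like cells had 5 of 8 members called beside 17.1% of all genes tested, clear/narrow-like cells 5 of 7 beside 14.4%, and myoid/fibroblast-like cells 4 of 7 beside 11.1%. Macrophage-like cells had 4 of 7 beside 13.6%, T-like cells 3 of 5 beside 15.5%, endothelial-like cells 3 of 6 beside 8.94% and sperm-like cells 3 of 7 beside 27.2%. Gpx4 was among those called in 6 populations, with the cauda highest, and of these its copy Gpx4-ps2 was called in basal-like cells alone (span 1.01, adjusted p = 0.00709). Its call in T-like and endothelial-like cells was lost with DESeq2 (adjusted p = 0.11 and 0.074), and was lost in T-like cells without any library but the P42 caput and P42 cauda (adjusted p from 0.0545 to 0.172) and in endothelial-like cells without any library but the P42 cauda and the corpus of P56 replicate 2 (0.0566 to 0.397). It was lost in myoid/fibroblast-like cells without the caput of P56 replicate 1 or 2 (0.0697 and 0.0621). Gpx6 was called in 5 populations, with the caput highest. Its call in sperm-like cells was lost in 3 alternatives (adjusted p up to 0.0738), among them without the corpus of P56 replicate 1 (adjusted p = 0.0615). Gpx7 was called in clear/narrow-like cells alone (span 2.06, adjusted p = 0.0214), a call lost without either P56 caput library or any corpus library (0.0588 to 0.111). Gpx2 was called in basal-like cells (highest in the corpus, adjusted p = 0.00571, with no fold given because the cauda held 1 UMI in all), and not without the cauda of P56 replicate 2 (0.0849). With all cells of a library summed, 6 of 8 members were called beside 24.6% of all genes, and Gpx7 and Gpx8 were not. Without the P42 cauda these 2 were called as well (spans of 1.45 for Gpx7, adjusted p = 0.024, and 1.45 for Gpx8, adjusted p = 0.000403), and Gpx7 was also called without the P42 caput (2.37, adjusted p = 0.00613). Gpx1 was called with a span of 1.01, which fell below the threshold of fold or p without the P56 replicate 1 library of any segment or the corpus of P56 replicate 2 (adjusted p from 0.0568 to 0.0797).

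Between the ages, P56 was compared with P42 in the principal-like cells of each segment, and the P42 library was assumed to vary like the P56 libraries. In each segment the ages lay largely in different clusters. In the caput 1151 of 1552 principal-like cells at P42 were in a cluster that came to 99.7% from that library. In the corpus 1237 of 1610 at P42 were in a cluster that came to 95.4% from that library, while 1085 of 1899 and 979 of 1278 in P56 replicates 1 and 2 were in another. In the cauda 1798 of 1858 at P42 were in a cluster of which that library made up 96.8%, and 1942 of 1967 and 1955 of 1975 in the P56 replicates were in another. Cluster and age cannot be told apart in any of the comparisons of age below. In the caput 0 of 7 members were called by edgeR and 0 by DESeq2, and 1, Gpx4, had an unadjusted p under 0.05, while 0.705% of 17302 genes were called. Gpx5 was estimated at 0.9998 ± 0.82 on the log2 scale there (adjusted p = 0.63). In the corpus 0 of 7 members were called by either tool and 1, Gpx7, had an unadjusted p under 0.05, beside 2.4% of all genes. Gpx5 in the corpus was estimated at 0.57 ± 0.81 (adjusted p = 0.76). Without the corpus of P56 replicate 1, which leaves 1 corpus library at each age, Gpx5 was lower at P56 (-1.55).

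In the cauda 4 of 7 members were called, beside 22.5% of all genes. Gpx6 (2.10 ± 0.76, adjusted p = 0.0588), Gpx1 (-0.56 ± 0.22, adjusted p = 0.0778) and Gpx5 (0.83 ± 0.82, adjusted p = 0.48) were not called. Gpx7 was lower at P56 (-3.91 ± 0.29, adjusted p = 1.63e-05), as was Gpx8 (-1.58 ± 0.21, adjusted p = 0.000498). Gpx3 (1.395 ± 0.35, adjusted p = 0.0125) and Gpx4 (1.05 ± 0.24, adjusted p = 0.00897) were higher at P56, and Gpx4-ps2 was not called (0.82 ± 0.22, adjusted p = 0.0183). The Gpx4 call lay close to the required fold and was lost without the cauda of P56 replicate 2 (0.96), at clustering resolution 0.5 (0.92) or 2 (0.84) and with mitochondrial genes left out (0.95). The calls of Gpx3 and Gpx4 were lost under another scaling. With library totals alone the median of all genes shifted by -0.78 between the ages in the cauda, and Gpx3 stood at 0.61 (adjusted p = 0.19) and Gpx4 at 0.26 (adjusted p = 0.46), both above that median and neither called, while Gpx1 became called lower (-1.35, adjusted p = 0.000847). Gpx7 and Gpx8 were called under both scalings. With cells assigned 1 by 1 from the marker lists, Gpx7 remained called (-2.49, adjusted p = 0.00139) and Gpx8 (-0.56, adjusted p = 0.27), Gpx3 (0.88, adjusted p = 0.15) and Gpx4 (0.51, adjusted p = 0.19) were not. These differences move with the markers of other cells given above for the P42 cauda, among them the myoid/fibroblast-like cells in which Gpx7 had 205 CPM, and the part of those markers in the difference was not tested. The difference of the age effect between segments was tested by an F test and called at an adjusted p under 0.05. It was called for 2 of 7 members, Gpx7 (adjusted p = 0.00269) and Gpx8 (adjusted p = 0.0149), beside 9.63% of all genes. This fit took the 3 segments of a P56 pool as independent. With the pool as a block, added after seeing the data, the same 2 members were called (adjusted p = 7.56e-05 for Gpx7 and 0.00133 for Gpx8). Without the block, neither was called with cells assigned 1 by 1 (adjusted p = 0.0536 and 0.62). The Gpx8 call was also lost without the cauda of P56 replicate 2, which leaves 1 cauda library at each age. The outcome for Gpx5 and Gpx6 moved with the corpus of P56 replicate 1 left out, and that for Gpx6 with the corpus of P56 replicate 2 left out. Those fits likewise leave 1 corpus library at each age.

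The genes whose levels followed each member most closely were found over the 74 sums of a library and a population, among 7733 genes, as a description. These sums share libraries and free RNA and are not independent. Gpx5 was most like Defb48 (Pearson r = 0.982), Lcn9 (0.977), Gm4846 (0.973), Spag11b (0.973) and Pate10 (0.971), and Gpx3 was most like Serpina16 (0.963), Defb43 (0.957), Cbs (0.953), Anxa13 (0.952) and Defb40 (0.949). Gpx6 was most like Bpi (0.917), Gria2 (0.901), Lypd8 (0.899), Defb18 (0.883) and Rab26 (0.881). Lypd8 and Defb18 also lead the caput cluster with the most Gpx5. Gpx7 was nearest to Nrep (0.837), Cd34 (0.829), Sspn (0.827), Zadh2 (0.821) and the fibroblast gene Pdgfra (0.817), Gpx8 to Slc1a5 (0.821), Cd81 (0.812), Fads1 (0.799), Zc2hc1a (0.779) and Ski (0.763), and Gpx1 to Gas6 (0.854), Dhrs3 (0.799), Ctsb (0.79), Dusp1 (0.786) and Fth1 (0.785). For Gpx4 the nearest was its copy Gpx4-ps2 (0.841), followed by Gstm5 (0.807), Scd3 (0.746), Galnt3 (0.744) and Pebp1 (0.736). Gpx2, on few UMIs, was nearest to Aldh3a1 (0.588), Edaradd (0.576), the basal cell gene Trp63 (0.534), Colca2 (0.529) and Mir205hg (0.527). Among the members themselves Gpx5 and Gpx6 had r = 0.88, and Gpx3 and Gpx5 had r = -0.89.

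A list of 27 genes of glutathione metabolism was counted in the same principal-like cells. It held enzymes that make, recycle and break down glutathione, transporters, glutaredoxins and enzymes that supply reducing power. Between corpus and caput 8 of the 25 tested were called, 2 higher and 6 lower, beside 23.7% of all genes, with a median log2 fold change of -0.18 beside -0.02 for all genes. Nnt, which feeds reducing power to mitochondrial glutathione and is known for a loss-of-function deletion in the C57BL/6J substrain, was higher in the corpus (3.83 ± 0.18, adjusted p = 1.02e-05), as was the aminopeptidase Anpep (2.51 ± 0.70, adjusted p = 0.0256). Anpep was low, at 1.21, 0.20 and 0.55 CPM in the caput and 6.5, 2.2 and 1.7 CPM in the corpus, with the P42 corpus highest. The gamma-glutamyl enzymes Ggt7 (-5.31), Ggct (-1.95) and Ggt1 (-1.96) were lower. So were the transporter Slc1a1 (-1.74), the transporter subunit Slc3a2 (-1.54) and the glutaredoxin Glrx (-1.47). Ggt7 stood at 40.9, 32.4 and 27.0 CPM in the caput and at 0.93, 0.66 and 0.82 CPM in the corpus. Between cauda and caput 5 of 25 were called, Nnt higher (1.72) and Ggt7 (-4.15), Ggt1 (-2.90), Chac1 (-1.42) and Slc3a2 (-1.24) lower, beside 24.7% of all genes, with a median of -0.18 beside 0.003. Chac1 was low, at 1.53, 1.03 and 1.53 CPM in the caput and 0.43, 0.44 and 0.35 CPM in the cauda. Between cauda and corpus 7 of 25 were called, with Ggct, Glrx, Slc1a1, Ggt7 and Idh1 higher and Anpep and Nnt lower, beside 10.1% of all genes, and a median of 0.05 beside 0.02. Idh1 had 33.06, 11.05 and 12.31 CPM in the cauda and 12.73, 8.01 and 6.16 CPM in the corpus. It was highest in the P42 cauda, and the part of that library's markers of other cells was not tested. By age, 0 of 26 were called in the caput beside 0.705% of all genes, Dpep1 alone in the corpus (-1.90) beside 2.4%, and 7 in the cauda beside 22.5%, where Gclm (1.70), which with Gclc makes the first enzyme of glutathione synthesis, Gss (1.20), Slc3a2 (1.21) and Ggct (1.16) were higher at P56 and Ggt5 (-5.45), Dpep1 (-4.29) and Anpep (-3.64) lower. The 4 higher calls depended on the scaling. With library totals alone Gclm stood at 0.92 (adjusted p = 0.00576), Slc3a2 at 0.42 (0.13), Gss at 0.41 (0.41) and Ggct at 0.37 (0.17), none of them called, while the 3 lower calls were also made. The CPM of Gclm was 141, 234 and 298 in the cauda at P42 and in P56 replicates 1 and 2, and that of Gss was 3.84, 5.15 and 5.10. In the same libraries Ggt5 had 7.465, 0.064 and 0.117 CPM and Anpep 2.13, 0.19 and 0 CPM. These cauda differences stand beside the same markers of other cells in the P42 library. In the corpus the principal-like cells also held more of such markers at P42, with 1439 CPM of myoid/fibroblast markers against 195 and 178, 546 of macrophage markers against 153 and 129, and 14877 of erythroid genes against 709 and 1139. The part of these markers in the Dpep1 call, and in the Anpep call between corpus and caput, was not tested.

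The lists were chosen with earlier results of these data known. The 10 genes that carry selenium to the cell or make, insert or break down selenocysteine were all tested. Lrp2, a receptor that takes up selenoprotein P, was higher in the corpus (4.58 ± 0.33, adjusted p = 4.09e-05) and in the cauda (5.62 ± 0.35, adjusted p = 1.98e-05) than in the caput, and its CPM was 7.09, 4.57 and 8.59 in the caput, 127, 145 and 192 in the corpus, and 183, 285 and 396 in the cauda. Lrp8, another receptor of selenoprotein P, was lower in the cauda than in the caput (-2.73, adjusted p = 0.00712) and than in the corpus (-2.84, adjusted p = 0.0165), at levels under 3 CPM. Lrp2 was the only one of the 10 called between corpus and caput, beside 23.7% of all genes, and 2 of 10 were called between cauda and caput, beside 24.7%. Between cauda and corpus Selenop was called higher (1.67, adjusted p = 0.00888) and Lrp8 lower, 2 of 10 beside 10.1%. Selenop was higher in the cauda than in the corpus in each pool, with the widest gap at P42 (69.3 against 14.99 CPM). The P42 cauda holds the markers of other cells given above, and their part in this call was not tested. Selenop, which encodes the carrier itself, was lower at P56 than at P42 in the caput (-1.25 ± 0.22, adjusted p = 0.0405), the corpus (-1.70 ± 0.27, adjusted p = 0.0111) and the cauda (-2.44 ± 0.22, adjusted p = 5.09e-05). It was the only one of the 10 called in the caput, beside 0.705% of all genes, and in the corpus, beside 2.4%, and 4 of 10 were called in the cauda, beside 22.5%. Its CPM was 20.5, 5.99 and 8.16 in the caput, 14.99, 3.01 and 3.90 in the corpus, and 69.3, 8.13 and 6.63 in the cauda. The markers of other cells given above for the P42 corpus and cauda move with these differences. In the principal-like cells of the caput the myoid/fibroblast markers summed to 2407 CPM at P42 against 2024 and 1868, the endothelial markers to 75.2 against 25.9 and 42.9, the erythroid genes to 5679 against 1025 and 4656, and the macrophage markers to 309 against 214 and 468, and the part of all these markers was not tested. In the cauda Lrp2 (1.68) and Pstk (1.06) were also called higher and Scly (-1.94) lower at P56. With library totals alone Lrp2 stood at 0.90 (adjusted p = 0.0374) and Pstk at 0.27 (adjusted p = 0.36), neither called, whereas Scly and Selenop were called lower.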

How the data were processed

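Epididymides were split into caput, corpus and cauda, and single cells were captured on a microwell chip with 3′ UMI chemistry. The authors trimmed reads, aligned them to GRCm38 with STAR 2.7.3a, counted genes over exons and collapsed UMIs, and deposited 1 table of UMI counts (32195 genes, 44869 barcodes). Columns belonging to no sample of the series numbered 0. Gene models shown here are from GENCODE M21, an earlier release than the M25 the authors counted with.

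Barcodes with 300 to 4000 genes, at most 20000 UMIs and under 50% mitochondrial UMIs were kept, and 2782 (6.20%) were dropped. Cells were scaled to 10000 UMIs and log-transformed, and 3000 variable genes without the 8 members were centred within each library. Clustering used 50 components, 20 neighbours and resolution 1 and gave 34 clusters (scikit-learn 1.9.0, leidenalg 0.10.2). The rule that turned markers into names was set after seeing the data. No doublet caller was run. UMIs were summed per library and population with at least 10 cells and tested with edgeR 4.0.16 (quasi-likelihood, filterByExpr, TMM) in R 4.3.3, with segment and pool in the model, or with segment and age as groups for the ages. DESeq2 1.42.0 was an alternative, as were other resolutions, scalings, filters and leaving out each library. The tests were checked on simulated counts, where they missed some of the changes put in and made some false calls. Likeness used log2(CPM + 1) over genes with a mean of at least 10 CPM. Floors stand for 3 counts, and intervals and floors cover counting error only.

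The members, lists and tests were chosen with earlier results of these data known. Named genes were the 8 members, the called genes of the glutathione and selenium lists, the 5 genes most like each member and the 5 leading genes of each caput cluster. Gclc, examples from the list of principal cell genes and the leading genes of myoid/fibroblast-like clusters were named outside this rule, the last after their values were seen. Segments of a pool share mice, so pool was a block in the comparisons of segments. The comparisons of ages had no pool term, since each pool is of 1 age, and took the segments of a pool as independent. Deviations from segment means correlated at a median of 0.277 (0.0352 to 0.631) in the 9 pairs from the same pool, 7 of them over 0.1, and at -0.144 in the 18 pairs from different pools. The deviations cancel out within a segment, so the second value is bound to the first and is no separate sign of pairing. With 1 P42 library per segment, that library was assumed to vary like the P56 libraries.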

Additional observations from a re-analysis of the deposited data

Results flagged for a closer look

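The change between P42 and P56 in principal-like cells differed between the segments for Gpx7 (edgeR F test of the difference, adjusted p = 0.002691) and for Gpx8 (adjusted p = 0.01487), in a fit that took the segments of a pool as independent. With the pool as a block the values were 7.557e-05 and 0.001326. In log2 terms, from caput through corpus to cauda, Gpx7 stood at -0.49, -1.11 and -3.91 and Gpx8 at -0.05, -0.10 and -1.58. The cauda at P42 is 1 library, and its principal-like cells also held 16913 CPM of myoid/fibroblast markers, whose part was not tested.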

How the results depend on the processing

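Of 7 members in principal-like cells, 3 were called between cauda and corpus, and this count became 1 at clustering resolution 0.5, 1 at resolution 2, 1 with library totals alone and 5 with no filter on low counts. The count for the difference of age between segments, 2, became 0 with cells assigned 1 by 1 from markers, 4 at resolution 0.5 and 4 with no filter. The corpus count between ages, 0, became 1 with the immunoglobulin-led corpus cluster counted as principal-like (an alternative chosen after seeing the data), 1 with library totals alone and 1 with no filter, and the cauda count between ages, 4, became 1 with cells assigned 1 by 1. At resolution 0.5 an unnamed cluster of 5078 cells, 47.9% from the corpus of P56 replicate 2, was left out. At resolution 2 an unnamed cluster of 2141 cells was, 52.3% from the cauda of P56 replicate 1. The principal-like cells were thus not the same set. With library totals alone 1484 of 15872 genes were called between cauda and corpus (1598 in the main fit). Between ages in the corpus 929 of 17302 were (415 in the main fit). The causes of the changed counts were not tested.

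Leaving out 1 library at a time gave 4 to 6 calls between corpus and caput, 5 to 6 between cauda and caput, 0 to 3 between cauda and corpus, 0 to 0, 0 to 1 and 3 to 5 between ages in caput, corpus and cauda, 1 to 4 for the difference of age, 5 to 8 in all cells and 22 to 32 over the other populations, where 27 were called with all libraries. Without the replicate block, that is without the pairing by pool, corpus against caput had 4 calls, cauda against corpus 2, cauda against caput 5, all cells 4 and the other populations 19. In that fit without the block, Gpx1 (-0.98) and Gpx7 (adjusted p = 0.0965) lost their calls between corpus and caput, Gpx8 between cauda and corpus (adjusted p = 0.0543). The difference of age, fitted without a block, kept its count of 2 with the replicate block, added after seeing the data. The 27 calls are a sum over populations that share libraries and free RNA. The share of all genes called was not set beside the counts of this paragraph. In the comparisons of ages, leaving out a P56 library leaves 1 library of its segment at each age.

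Signs that turned belonged to differences that were not called with all libraries. For Gpx1 between cauda and caput (0.03) they were -0.33 at resolution 2, -0.18 with totals alone and -0.013 with no filter, and leaving out 1 library gave -0.11 to 0.23, below 0 without the P42 caput, the caput of P56 replicate 1 (-0.022) or the P42 cauda (-0.079). Leaving out 1 library gave -0.11, without the P42 cauda, to 1.95 for Gpx7 between cauda and corpus. Between ages in the caput Gpx3 was -0.15 and Gpx8 0.0032 with cells assigned 1 by 1, and leaving out 1 library gave -0.21 to 0.10 for Gpx8, the latter without P56 replicate 2. In the corpus Gpx1 was 0.41 and Gpx7 0.12 at resolution 0.5 and Gpx4 -0.20 with totals alone. Leaving out 1 library there gave -0.042 to 0.47 for Gpx4 and -0.30 to 0.067 for Gpx8, turned without P56 replicate 2, and -1.55 to 1.39 for Gpx5 and -5.48 to 1.63 for Gpx6, turned without P56 replicate 1. In the cauda Gpx5 was -0.11 at resolution 2. Over all members, comparisons and alternatives, 1665 fold changes kept direction and side of the threshold, 95 lost and 41 gained a call and 18 turned. With totals alone the share of called genes that were higher at P56 went from 36.3% to 4.21% in the cauda, from 35.7% to 7.86% in the corpus and from 52.5% to 18.8% in the caput (64.7% by DESeq2).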
